A study of Homo sapiens with 2 samples.

Results

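The genes of DNA replication licensing and synthesis were described in MDA-MB-231 cells, a long-established line of human breast cancer of the triple-negative kind, after CEL treatment. They comprise 50 genes, chosen by name from the 60624 named rows of the expression table, and each matched 1 row. The study's title concerns exosomes of M1 macrophages combined with CEL against this cancer, and the samples used here are RNA sequencing of the cancer cell line, with neither exosomes nor macrophages in their labels. The CEL culture received 1 µM of an agent that the labels name only as CEL for 24 h, and the Control culture was incubated for 24 h, with no agent or vehicle named. Each group is 1 library, so the spread between cultures is unknown, no p-value is given, and "higher" and "lower" compare the CEL library with the Control library, not the conditions. In bulk RNA, a change in the share of cells in S phase and a change in transcript per cell cannot be told apart.

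Replication is prepared in G1, when the origin recognition complex (ORC), CDC6 and CDT1 load the MCM2 to MCM7 helicase on origins. At the start of S phase, the kinase CDC7 with DBF4, together with cyclin-dependent kinases, converts the loaded helicase into an active form with CDC45 and the GINS complex. Polymerase alpha with primase then starts each strand, the clamp loader RFC places the PCNA clamp at the primer, and polymerases epsilon and delta extend it. Many of these genes are E2F targets that are transcribed around the passage from G1 to S phase, and their level is commonly read as a sign of proliferation.

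The libraries held 17199398 reads in genes for CEL and 14821148 for Control. Mitochondrially encoded genes took 4.06% of the CEL reads and 7.14% of the Control reads. Values are FPKM, reads scaled by gene length and by the library's counted total. Folds of single genes are ratios of FPKM, CEL over Control, with a 95% counting interval that is exact, conditional on the sum of the reads, and covers counting error only. A gene was called higher or lower where it differed at least 1.5-fold on the log2(FPKM + 1) scale, which is 0.58 in log2 units and understates the change of low genes. Of 6 mesenchymal markers of the line, 5 passed a filter of 1 FPKM in at least 1 library, with a summed level of 2776 FPKM in CEL and 2610.2 FPKM in Control, and SPARC did not, at 0.653 FPKM in CEL and 0.688 FPKM in Control. Of 8 epithelial and hormone receptor markers, 5 passed, with a summed level of 944 FPKM in CEL and 790.3 FPKM in Control. Among these 5, KRT18 was higher, at 231 FPKM in CEL and 145 FPKM in Control, and EPCAM was lower, at 8.97 FPKM in CEL and 17.2 FPKM in Control, while KRT8, ERBB2 and GATA3 differed by less than 1.5-fold. The hormone receptor genes ESR1 and PGR had 0 reads in both libraries, which allows up to 3 reads each, and CDH1 was at 0.183 FPKM in CEL and 0.791 FPKM in Control. Of 6 macrophage and leukocyte markers, 2 reached 1 FPKM in at least 1 library, CSF1R and CD14, with a summed level of 3.17 FPKM in CEL and 4.70 FPKM in Control, PTPRC had 9 reads in CEL and 2 in Control, and CD163 had 0 in both.

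Replication transcripts were on the whole slightly more abundant in the CEL library, with small differences. All 50 members passed the filter of 1 FPKM in at least 1 library. Of the 50, 6 (12%) were higher, RFC5, CDC6, POLE3, RPA3, RFC4 and RFC3, and 0 were lower. Of all 13745 genes that passed the filter, 8.97% were higher and 10.2% were lower, and of the 8170 protein-coding genes at or above 10 FPKM, 8.57% were higher and 6.38% lower, so the share of higher members was near that of all genes. Over all genes, 1233 were higher and 1398 lower, and these counts were 957 and 1784 with upper quartile scaling, 679 and 2010 with a trend on gene length removed, and 733 and 1962 with that trend removed in 5 expression bins. At a call of 0.32 in log2 units, 23 members were higher and 1, LIG1, was lower, against 21.8% and 22.8% of all genes. At a call of 2-fold, 0 members were higher or lower, against 2.7% and 3.24% of all genes. The ratio was above 1 for 42 of the 50 members (84.0%), against 50.2% of all genes and 54.8% of those protein-coding genes, and below 1 for 8, against 49.8% of all genes. The counting interval lay above 1 for 35 members (70.0%), against 29.9% of all genes and 40.7% of those protein-coding genes. It lay below 1 for 5 members (10%), LIG1, RRM2, CDC7, POLE and UHRF1, against 29.1% of all genes and 32.4% of those protein-coding genes. The median log2 fold of the members was 0.24, with quartiles of 0.10 and 0.49 and a range of -0.48 to 0.86. Over all genes the median was 0.00, with quartiles of -0.29 and 0.28. The summed level of the members was 4313 FPKM in CEL and 3583 FPKM in Control, a ratio of 1.20.

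**Figure D1:**
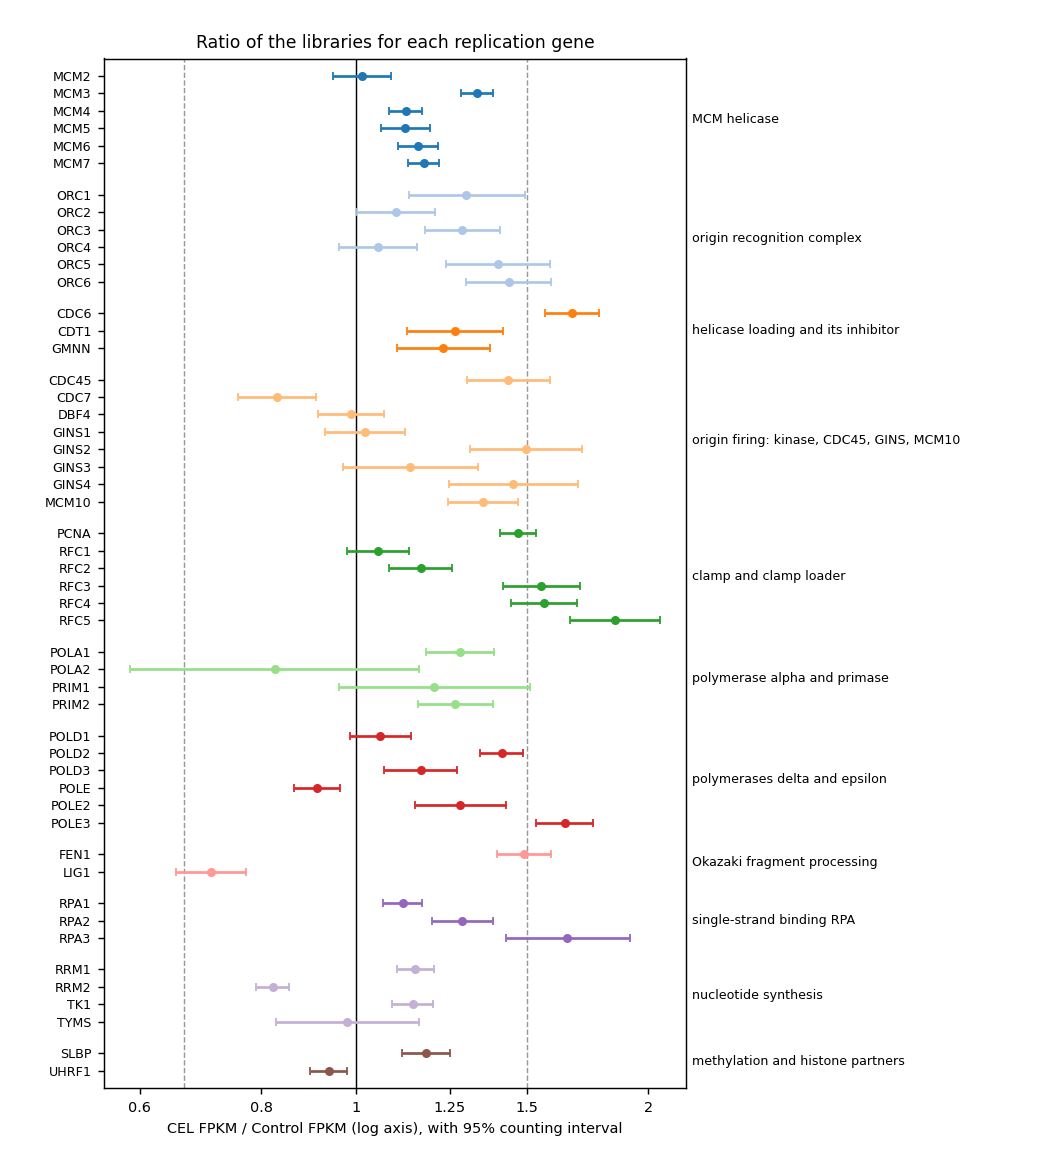
Ratio of CEL FPKM to Control FPKM (log axis) for each of the 50 replication genes, grouped by role, with 1 library per group. Points are ratios, bars are 95% counting intervals, and dashed lines mark 1.5-fold higher and lower; 42 of the 50 points lie above 1, and the range is 0.71 for LIG1 to 1.85 for RFC5.

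Promoter sequence was set beside the folds, because E2F factors are known regulators of many of these genes. RefSeq promoter windows on GRCh38.p14, from 250 bases before to 50 bases after a transcript start, were found for 44 of the 50 members, in 60 windows. An E2F-type motif was searched as TTTCCCGC, TTTCGCGC, TTTGCCGC or TTTGGCGC on both strands, with overlapping matches counted separately. It was found in 22 of the 60 member windows (36.7%), and in 4.1% of 22199 windows of protein-coding genes and 3.31% of all 35116 windows. By gene, 21 of the 44 members (47.7%) held it in at least 1 window, against 5.4% of 15843 protein-coding genes. Windows of the same gene are not independent, so no interval is given. The CHR-type motif known from promoters of mitotic genes, TTTGAA or TTCGAA on either strand, was found in 4 of the 60 member windows (6.67%) and 13.7% of protein-coding windows. For the G2 and mitosis list described below, the shares of windows were 6.9% for the E2F type and 67.2% for the CHR type. For the list of other replication factors they were 25% and 3.57%. For the list of G1 cyclins, CDKs and RB-E2F genes they were 17.6% and 14.7%. A match is a description of these letters and not a binding site. The 21 members with an E2F-type match had a median log2 fold of 0.23 and the 23 without one had 0.24, with ranges of -0.48 to 0.73 and -0.28 to 0.86. The folds of members with and without a match therefore overlapped over most of their range.

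The windows below are those of the 3 members with the largest log2 folds and the 2 with the lowest among the 44 members in the promoter table, and of MCM6, chosen after its sequence was seen because it held the most matches. Capitals mark E2F-type matches. The windows lie at chr12:118016453-118016752 (plus strand) for RFC5, chr17:40287629-40287928 (plus) for CDC6, chr9:113410700-113410999 (minus) for POLE3, chr19:48170295-48170594 (minus) for LIG1, chr2:10122489-10122788 (plus) for RRM2 and chr2:135876394-135876693 (minus) for MCM6. Each is printed 5′ to 3′ on the gene's strand. POLE3 has 3 windows in the table and RRM2 has 2, of which the one listed at the top is shown. CDC6, among the highest folds, and LIG1, the lowest, held 1 match each, while RFC5, with the highest fold, held 0 in its window. MCM6 held 4 matches, in 2 overlapping pairs, each pair a match on 1 strand running into a match on the other.
RFC5: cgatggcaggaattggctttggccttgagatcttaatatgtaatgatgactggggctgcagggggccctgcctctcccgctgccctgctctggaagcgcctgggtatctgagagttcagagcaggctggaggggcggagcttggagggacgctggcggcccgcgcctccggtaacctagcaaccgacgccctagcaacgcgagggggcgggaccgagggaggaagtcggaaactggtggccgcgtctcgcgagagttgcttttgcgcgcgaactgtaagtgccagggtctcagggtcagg
CDC6: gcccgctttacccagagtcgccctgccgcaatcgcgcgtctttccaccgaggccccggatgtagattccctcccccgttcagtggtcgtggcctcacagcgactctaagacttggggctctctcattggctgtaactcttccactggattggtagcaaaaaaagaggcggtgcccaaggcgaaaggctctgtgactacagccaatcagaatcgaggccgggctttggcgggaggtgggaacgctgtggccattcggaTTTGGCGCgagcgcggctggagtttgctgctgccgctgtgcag
POLE3: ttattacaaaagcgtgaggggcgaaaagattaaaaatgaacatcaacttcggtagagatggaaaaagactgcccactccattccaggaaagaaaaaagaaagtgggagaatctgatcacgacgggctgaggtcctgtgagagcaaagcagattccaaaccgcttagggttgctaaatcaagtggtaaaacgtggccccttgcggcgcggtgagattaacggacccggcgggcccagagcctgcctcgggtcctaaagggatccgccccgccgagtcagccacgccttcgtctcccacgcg
LIG1: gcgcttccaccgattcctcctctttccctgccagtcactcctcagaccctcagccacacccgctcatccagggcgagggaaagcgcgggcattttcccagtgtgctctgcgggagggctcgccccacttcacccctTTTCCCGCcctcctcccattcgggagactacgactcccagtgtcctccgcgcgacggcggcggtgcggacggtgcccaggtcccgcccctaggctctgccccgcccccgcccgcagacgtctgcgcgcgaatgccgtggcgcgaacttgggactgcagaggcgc
RRM2: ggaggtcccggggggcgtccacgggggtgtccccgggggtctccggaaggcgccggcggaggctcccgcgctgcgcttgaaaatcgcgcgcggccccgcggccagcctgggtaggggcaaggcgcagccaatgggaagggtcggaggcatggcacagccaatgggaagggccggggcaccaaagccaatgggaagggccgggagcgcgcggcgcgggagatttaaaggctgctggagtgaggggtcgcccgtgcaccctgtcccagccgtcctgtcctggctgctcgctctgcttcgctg
MCM6: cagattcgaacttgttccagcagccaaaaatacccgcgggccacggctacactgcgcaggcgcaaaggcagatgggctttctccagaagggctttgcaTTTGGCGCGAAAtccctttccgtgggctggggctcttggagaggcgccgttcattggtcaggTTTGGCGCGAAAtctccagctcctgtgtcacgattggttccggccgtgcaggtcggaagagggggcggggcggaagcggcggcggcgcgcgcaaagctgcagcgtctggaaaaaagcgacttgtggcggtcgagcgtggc

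The origin recognition complex marks replication origins for the rest of the machinery. All 6 subunits had a ratio above 1 and 0 passed 1.5-fold, with a median log2 fold of 0.35. Of all genes, 50.2% had a ratio above 1, 8.97% were higher and 10.2% lower. ORC6, the smallest subunit, stood at 50.6 FPKM in CEL and 35.3 FPKM in Control, a ratio of 1.44 (1.30 to 1.59). ORC5 stood at 36.0 FPKM in CEL and 25.7 FPKM in Control, a ratio of 1.40 (1.24 to 1.58). In both genes the CEL library was above the Control library by more than counting error. ORC3 stood at 48.0 FPKM in CEL and 37.3 FPKM in Control. ORC1, an ATPase subunit, stood at 9.96 FPKM in CEL and 7.66 FPKM in Control. ORC2 stood at 43.7 FPKM in CEL and 39.8 FPKM in Control. ORC4 had the lowest ratio of the complex, 1.05 (0.960 to 1.16), at 23.8 FPKM in CEL and 22.6 FPKM in Control, so its libraries were not told apart at this depth. ORC1 was the least abundant subunit in both libraries per deposited length.

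CDC6, CDT1 and geminin (GMNN) control helicase loading. CDC6 (ENSG00000094804; GRCh38 chromosome 17, 40287879 to 40304657), the ATPase that joins ORC to load the helicase, had the largest difference of this group. It stood at 121 FPKM (2801 reads) in CEL and 72.4 FPKM (1445 reads) in Control, a ratio of 1.67 (1.57 to 1.78). CDC6 was called higher in each of the 10 alternative settings, with log2 folds of 0.64 to 0.74. Of these settings, the filters cannot move the fold of any member, and centring moves each by 0.002. Calls kept there add little for any member. CDT1, which brings the helicase to CDC6 and ORC, stood at 33.5 FPKM in CEL and 26.5 FPKM in Control, a ratio of 1.26 (1.13 to 1.42). GMNN, the inhibitor that binds CDT1 outside G1, stood at 53.3 FPKM in CEL and 43.3 FPKM in Control, a ratio of 1.23 (1.10 to 1.37). In the deposited values, the activator and its inhibitor thus kept nearly the same proportion of transcripts. The FPKM of CDT1 over that of GMNN was 0.629 in CEL and 0.613 in Control. With the length trend removed, the log2 fold was 0.25 for CDT1 and 0.05 for GMNN, which has a deposited length of 862 bases. The proportion was therefore less alike in that setting.

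MCM2 to MCM7 form the replicative helicase, a ring of 1 copy of each. All 6 had a ratio above 1 and 0 passed 1.5-fold, with a median log2 fold of 0.19. Of all genes, 50.2% had a ratio above 1, 8.97% were higher and 10.2% lower. MCM3 had the highest ratio, 1.33 (1.28 to 1.38), at 183 FPKM in CEL and 137 FPKM in Control. MCM7, the most abundant in CEL, stood at 239 FPKM in CEL and 204 FPKM in Control, a ratio of 1.18 (1.13 to 1.22). MCM4 stood at 233 FPKM in CEL and 207 FPKM in Control. MCM6 was at 139 FPKM in CEL and 120.4 FPKM in Control, and MCM5 at 108 FPKM in CEL and 96.4 FPKM in Control. MCM2, the least abundant, stood at 61.3 FPKM in CEL and 60.4 FPKM in Control, a ratio of 1.02 (0.947 to 1.09). The libraries were not told apart for MCM2, while the other 5 lay above counting error. The most and the least abundant subunit differed 3.90-fold in CEL and 3.43-fold in Control per deposited length.

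The factors that fire a loaded origin were divided. CDC45, which completes the active helicase, stood at 53.8 FPKM in CEL and 37.5 FPKM in Control, a ratio of 1.44 (1.30 to 1.58). Of the GINS complex, GINS2 stood at 28.7 FPKM in CEL and 19.2 FPKM in Control, a ratio of 1.5 (1.31 to 1.71), and was just under the call on the log2(FPKM + 1) scale, at 0.56. GINS4 stood at 17.9 FPKM in CEL and 12.3 FPKM in Control, a ratio of 1.45 (1.247 to 1.69). The other members of the complex were closer, GINS1 at 45.7 FPKM in CEL and 44.7 FPKM in Control, and GINS3 at 17.8 FPKM in CEL and 15.6 FPKM in Control, and both of their intervals included 1. Subunits of the same complex thus spanned ratios of 1.02 to 1.5. MCM10, which helps to activate the helicase, stood at 41.0 FPKM in CEL and 30.4 FPKM in Control, a ratio of 1.35 (1.24 to 1.47). CDC7, the kinase that phosphorylates the helicase, stood at 30.4 FPKM in CEL and 36.7 FPKM in Control, a ratio of 0.830 (0.757 to 0.911). DBF4, its activating subunit, stood at 50.9 FPKM in CEL and 51.5 FPKM in Control, a ratio of 0.988 (0.914 to 1.07). The kinase genes lay at or below 1 while CDC45, GINS2, GINS4 and MCM10 lay above it.

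The sliding clamp and its loader had the highest median of the roles, a log2 fold of 0.59 over 6 genes. Of these 6, 3 were higher, against 8.97% of all genes. RFC5 (ENSG00000111445; chromosome 12, 118013588 to 118033130), a small subunit of the loader, had the largest log2 fold of all members, 0.86. It stood at 60.1 FPKM (1086 reads) in CEL and 32.6 FPKM (507 reads) in Control, a ratio of 1.85 (1.66 to 2.06). RFC4 (ENSG00000163918; chromosome 3, 186789880 to 186807058) stood at 124 FPKM in CEL and 79.6 FPKM in Control, a ratio of 1.56 (1.45 to 1.69). RFC3 (ENSG00000133119; chromosome 13, 33818069 to 33966558) stood at 52.0 FPKM in CEL and 33.6 FPKM in Control, a ratio of 1.55 (1.42 to 1.70). RFC2, the remaining small subunit, stood at 101 FPKM in CEL and 86.3 FPKM in Control, a ratio of 1.17 (1.08 to 1.26). RFC1, the large subunit, stood at 79.8 FPKM in CEL and 75.7 FPKM in Control, a ratio of 1.05 (0.979 to 1.13). Within the loader, the FPKM of RFC5 over that of RFC1 was 0.754 in CEL and 0.430 in Control. PCNA, the clamp that holds polymerases on DNA, stood at 254 FPKM (5749 reads) in CEL and 173 FPKM (3372 reads) in Control, a ratio of 1.47 (1.41 to 1.53). It lay just under the call, at a log2 fold of 0.55. RFC5 was called higher in each of the 10 alternative settings, RFC4 in 6 and RFC3 in 4. These counts include the filters and centring, which hardly move a fold. The log2 fold of RFC4 was 0.38 at its lowest, and RFC4 has the shortest deposited length of all members, 843 bases. Over the same settings, RFC2 lay at 0.03 at its lowest and RFC1 at -0.03.

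The polymerases showed differences among their own subunits. POLE3 (ENSG00000148229; chromosome 9, 113407235 to 113410675), a histone-fold subunit of polymerase epsilon, stood at 80.3 FPKM (2470 reads) in CEL and 49.0 FPKM (1298 reads) in Control, a ratio of 1.64 (1.53 to 1.76), and was called higher in all 10 alternatives. POLE2, another accessory subunit, stood at 54.5 FPKM in CEL and 42.6 FPKM in Control, a ratio of 1.28 (1.15 to 1.43). POLE, the catalytic subunit that extends the leading strand, stood at 60.2 FPKM in CEL and 66 FPKM in Control, a ratio of 0.912 (0.863 to 0.964). Polymerase epsilon thus had its catalytic subunit below 1 and these accessory subunits above 1. The deposited length is 2527 bases for POLE, 909 for POLE2 and 1788 for POLE3. Over the 10 alternatives, the log2 fold of POLE was -0.05 at its highest. At their lowest, POLE2 lay at 0.13 and POLE3 at 0.61. In polymerase delta, which extends the lagging strand, the catalytic POLD1 stood at 48.3 FPKM in CEL and 45.5 FPKM in Control, a ratio of 1.06 (0.987 to 1.14). Its accessory subunit POLD2 stood at 264 FPKM in CEL and 187 FPKM in Control, a ratio of 1.41 (1.34 to 1.49), and POLD3 stood at 56.8 FPKM in CEL and 48.7 FPKM in Control. POLD2 was the most abundant member in CEL per deposited length, which is 860 bases, against 2064 for POLD1. Over the alternatives, POLD2 lay at a log2 fold of 0.24 at its lowest and POLD1 at 0.12 at its highest. In polymerase alpha the order was the other way round. The catalytic POLA1 stood at 26.1 FPKM in CEL and 20.4 FPKM in Control, a ratio of 1.28 (1.18 to 1.39), and POLA2 stood at 2.66 FPKM (70 reads) in CEL and 3.22 FPKM (73 reads) in Control, a ratio of 0.826 (0.587 to 1.16). The primase subunits PRIM2 and PRIM1 stood at 57.4 and 11.1 FPKM in CEL and at 45.4 and 9.21 FPKM in Control.

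Transcript length was set beside these differences, because several subunits with ratios near or below 1 have long transcripts. The longest coding transcript in GENCODE 29 is 7840 bases for POLE, 4886 bases for RFC1 and 6710 bases for ORC4, against 2449 bases for RFC5, 2191 bases for POLE3 and 1448 bases for RFC4. Other genes did not follow that order, as POLA1, at 5486 bases, and CDC6, at 4810 bases, had ratios above 1. Across the 50 members, Spearman's coefficient of log2 fold with the deposited length was -0.35 and with the longest coding transcript -0.45, as a description of genes that share these libraries. Over the 8170 protein-coding genes it was -0.30 with the deposited length, so short genes in general had higher ratios. The 17 shortest members (843 to 1199 bases) had a median log2 fold of 0.36, and the 1799 protein-coding genes of those lengths had 0.16. The 17 longest members (1532 to 3417 bases) had a median of 0.08, and the 3624 protein-coding genes of those lengths had -0.03. The trend subtracted was on the deposited length, which is 1179 bases for RFC1 and 1788 bases for POLE3. It therefore does not follow the order of the longest coding transcripts given above. With this trend subtracted, 3 members were called higher, RFC5, CDC6 and POLE3, against 4.94% of all genes. In this setting 40 of 50 members lay above 0, against 43.9% of all genes, with medians of 0.15 and -0.06. The trend was fitted on protein-coding genes at or above 10 FPKM, so the values over all genes include genes outside the fit. With the trend subtracted, GINS1, RFC1 and TK1 lay below 0 and UHRF1 above it, each on the other side of 0 from its deposited value. Transcript length moves with these ratios, and its part in them was not tested beyond this subtraction.

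**Figure D2:**
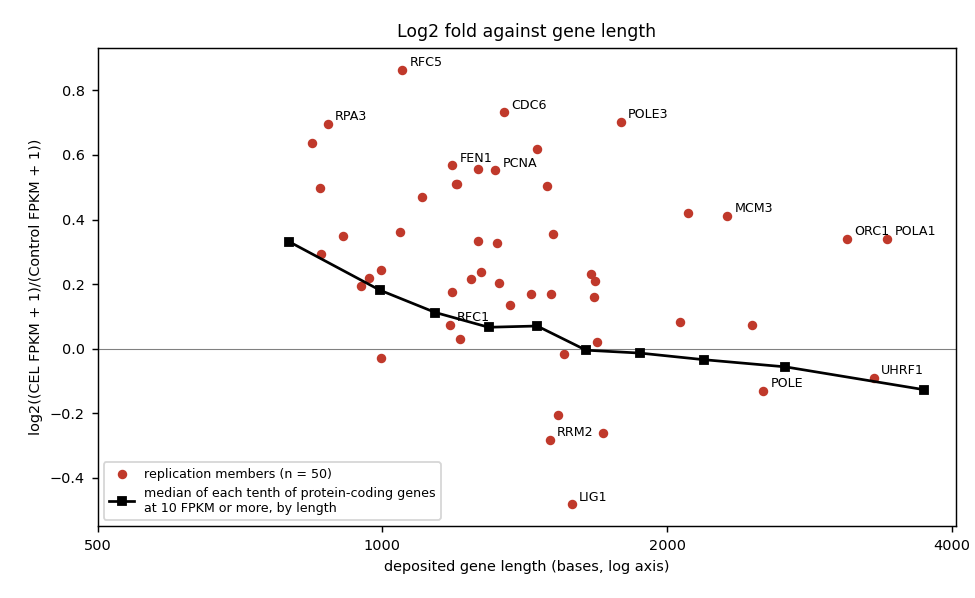
Log2 fold of CEL over Control (FPKM + 1) against deposited gene length in bases (log axis) for the 50 replication genes (red points) and the median of protein-coding genes at or above 10 FPKM in 10 groups of equal size by length (black squares). Most members lie above the line of medians, which runs from 0.33 for the shortest group to -0.13 for the longest.

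FEN1 and LIG1 finish the lagging strand. FEN1, the nuclease that removes RNA primer flaps, stood at 125 FPKM (2550 reads) in CEL and 83.9 FPKM (1476 reads) in Control, a ratio of 1.49 (1.40 to 1.59), just under the call at a log2 fold of 0.57. LIG1 (ENSG00000105486; chromosome 19, 48115445 to 48170603), the ligase that seals the resulting nicks, had the lowest log2 fold of all members, -0.48. It stood at 38.0 FPKM (1038 reads) in CEL and 53.5 FPKM (1259 reads) in Control, 1.41-fold lower, a ratio of 0.710 (0.654 to 0.772). These consecutive enzymes thus lay on opposite sides of 1. The FPKM of FEN1 over that of LIG1 was 3.29 in CEL and 1.57 in Control.

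RPA covers single-stranded DNA at the fork, and its 3 subunits all had ratios above 1, against 50.2% of all genes. RPA3 (ENSG00000106399; chromosome 7, 7636518 to 7718607), the smallest, was higher, at 35.8 FPKM (540 reads) in CEL and 21.7 FPKM (282 reads) in Control, a ratio of 1.65 (1.43 to 1.91). It kept its call in 8 of the 10 alternatives and lay at a log2 fold of 0.45 at its lowest. RPA2 stood at 102 FPKM in CEL and 79.3 FPKM in Control, a ratio of 1.29 (1.20 to 1.38). RPA1, the large subunit, stood at 149.7 FPKM in CEL and 134 FPKM in Control, a ratio of 1.12 (1.07 to 1.17). By deposited length, the shorter the gene, the higher was the ratio among these 3, at 876 bases for RPA3, 1043 for RPA2 and 1676 for RPA1. The longest coding transcripts did not give this order, at 2020 bases for RPA3, 1752 for RPA2 and 4340 for RPA1.

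The enzymes that supply deoxynucleotides differed little in sum, at 653 FPKM in CEL and 638 FPKM in Control, but their members went both ways. RRM2 (ENSG00000171848; chromosome 2, 10120698 to 10211725), the small subunit of ribonucleotide reductase that is made in S phase, stood at 192 FPKM (4977 reads) in CEL and 234 FPKM (5217 reads) in Control, a ratio of 0.822 (0.791 to 0.855). RRM1, its large partner subunit, stood at 205 FPKM in CEL and 178 FPKM in Control, a ratio of 1.15 (1.10 to 1.20). Per deposited length, RRM2 was the most abundant of the 50 members in Control and the seventh in CEL, and its FPKM over that of RRM1 was 0.938 in CEL and 1.31 in Control. TK1, the salvage kinase of thymidine, stood at 238 FPKM in CEL and 208 FPKM in Control, a ratio of 1.14 (1.09 to 1.20). TYMS, which makes thymidylate, stood at 17.5 FPKM (299 reads) in CEL and 17.8 FPKM (263 reads) in Control, a ratio of 0.980 (0.827 to 1.16). SLBP, which binds the stem loop of histone messages, stood at 131 FPKM in CEL and 111 FPKM in Control, a ratio of 1.18 (1.12 to 1.249). UHRF1, which recruits the maintenance methyltransferase to new DNA, stood at 75.5 FPKM in CEL and 80.5 FPKM in Control, a ratio of 0.938 (0.898 to 0.980).

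Levels ran from 2.66 FPKM for POLA2 to 264 FPKM for POLD2 in CEL and from 3.22 FPKM for POLA2 to 234 FPKM for RRM2 in Control, with medians of 55.7 and 47.1 FPKM. The order of levels among genes depends on the length used. The deposited length equals the whole part of the mean annotated transcript length for 35.6% of the 22503 genes with several transcripts in GENCODE 29, and the longest transcript for 0.244%, and for the members the longest coding transcript was 1.02 to 4.14 times the deposited length. Per kilobase of that transcript, PCNA was the most abundant, at 246 FPKM in CEL and 167 FPKM in Control, followed by TK1 at 135 FPKM in CEL and 118 FPKM in Control. POLD2, at 105 FPKM in CEL and 74.4 FPKM in Control on this scale, lay below TK1, MCM3 and MCM7 in both libraries. RRM2, at 78.8 FPKM in CEL and 95.8 FPKM in Control, lay below PCNA, TK1, MCM3 and MCM7 in both. Ratios between the libraries do not depend on this choice. Some members share exonic sequence with neighbouring genes, and how reads in such overlaps were assigned is not stated. TYMS shares 46.6% of its exonic bases, POLA2 35.1%, MCM2 and GINS4 23.6% each, PRIM1 21.6% and RRM2 20.2%, so their levels are uncertain. Smaller shares included 10.9% for GINS3, 10.7% for RFC5, 8.94% for MCM7, 8.68% for FEN1 and 8.64% for POLD1. RPA3 shares 3.65% and LIG1 2.72%. Of 17 rows named as pseudogenes of members, DBF4P1 had 3 reads in each library and the others had 0.

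**Figure D3:**
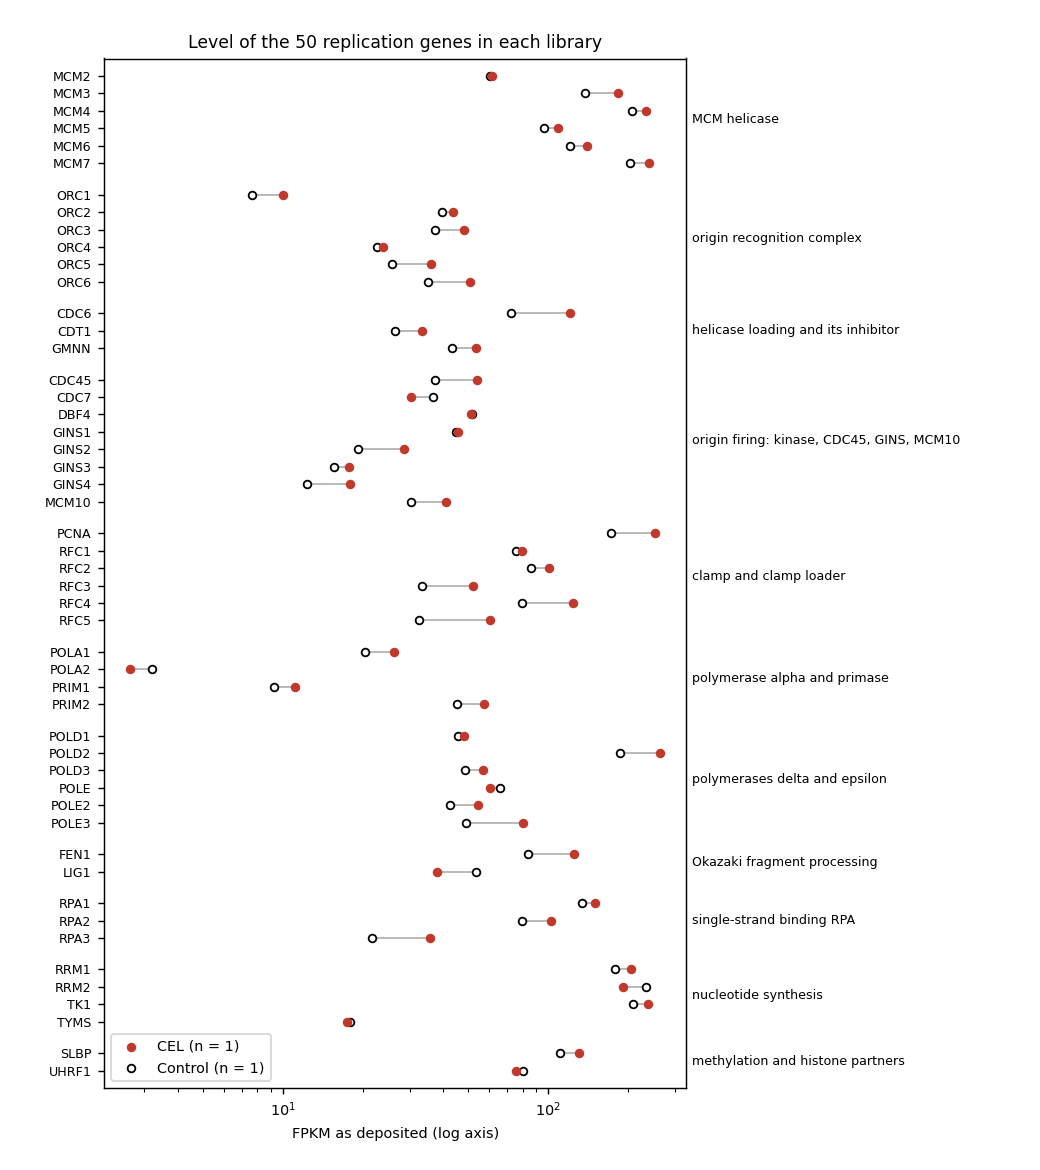
FPKM as deposited (log axis) of each of the 50 replication genes in the CEL library (filled red circles) and the Control library (open circles), 1 library each, grouped by role. The gap is small beside the differences between genes, which span 2.66 to 264 FPKM in CEL and 3.22 to 234 FPKM in Control.

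Genes of the same pathway outside the 50 were set beside them. Of 27 other replication factors, 25 passed the filter, with a median log2 fold of 0.20, 3 higher and 0 lower. Beside this and the next list, 8.97% of all genes were higher and 10.2% lower. The higher genes were POLE4, the histone-fold partner of POLE3, at 45.3 FPKM in CEL and 23.3 FPKM in Control (ratio 1.94, 1.65 to 2.29), RNASEH2C, a subunit of the RNase that removes ribonucleotides from DNA, and PCLAF, a PCNA-binding factor. POLE4 and POLE3, which form a dimer, both lay above 1. The deposited length is 624 bases for POLE4, 886 for PCLAF and 1826 for RNASEH2C, and short genes in general had higher ratios. With the length trend removed, 1 gene of this list was called higher, against 4.94% of all genes. DBF4B, an alternative activator of CDC7, stood at 26.5 FPKM in CEL and 38.5 FPKM in Control, a log2 fold of -0.52, and was the lowest of this list. Of 28 other genes of nucleotide supply, 7 were higher and 1 was lower, with a median of 0.18. The largest differences among the higher genes were those of NME1, a nucleoside diphosphate kinase with 87 reads in CEL and 19 in Control whose reads may be shared with its neighbour NME2, of GART in purine synthesis, at 187 FPKM in CEL and 108 FPKM in Control, and of CTPS1, which makes CTP, at 49.1 FPKM in CEL and 29.1 FPKM in Control. The lower gene was SAMHD1, which degrades deoxynucleotides, at 35.1 FPKM in CEL and 65.1 FPKM in Control, a ratio of 0.539 (0.504 to 0.576).

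The neighbouring stages of the cell cycle had other values. The list of G1 cyclins, CDKs and the RB-E2F genes had a median log2 fold of 0.00 over the 28 of 31 genes that passed. Of these, 1 was higher and 4 were lower, against 8.97% and 10.2% of all genes. CDC25A, the phosphatase that activates CDK2, was higher, at 31.5 FPKM in CEL and 20.1 FPKM in Control. CDKN2D and CDKN2C, inhibitors of CDK4 and CDK6, were lower, at 12.1 and 21.4 FPKM in CEL and 29.3 and 40.2 FPKM in Control. CDKN1C, another CDK inhibitor, was also lower, with 11 reads in CEL and 29 in Control, as was RBL2, a relative of RB, at 14.04 FPKM in CEL and 21.6 FPKM in Control. Genes of G2 and mitosis had a median of -0.53 over the 51 of 53 that passed, with 0 higher and 18 lower. Of all genes, 8.97% were higher and 10.2% lower. The number lower was 28 with upper quartile scaling and 27 with the GC trend removed, against 13% and 11.6% of all genes. It was 24 with the length trend removed overall or in bins, against 14.6% and 14.3% of all genes. After rescaling to TPM it was 21, against 13.5%. Of these 51, 46 had a ratio below 1, against 49.8% of all genes. KIF20A, a kinesin of cytokinesis, stood at 93.3 FPKM in CEL and 236 FPKM in Control, NEK2 at 31.1 FPKM in CEL and 64.5 FPKM in Control, PLK1, a mitotic kinase, at 60.2 FPKM in CEL and 115 FPKM in Control, and INCENP at 41.9 FPKM in CEL and 77.6 FPKM in Control. The quartiles were 0.10 and 0.49 for the replication genes and -0.67 and -0.32 for the mitotic genes. The difference between lists was not tested, as 1 library per group allows no test.

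**Figure D4:**
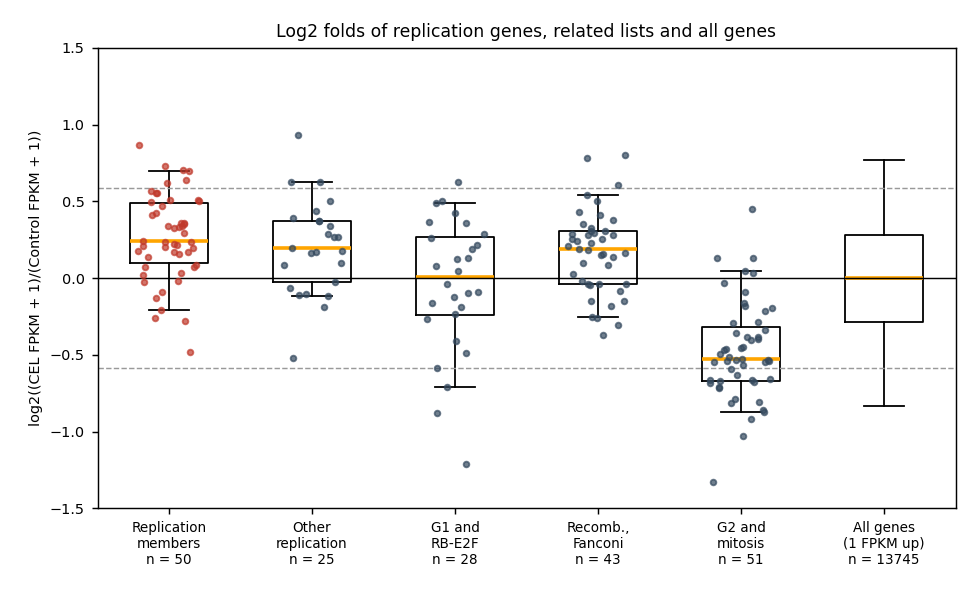
Log2 folds of CEL over Control (FPKM + 1) for the replication genes, related lists and all genes that passed the filter; points are genes, boxes are quartiles with the median in orange, whiskers run from the 5th to the 95th percentile, and dashed lines mark 1.5-fold. The replication genes have a median of 0.24 and the genes of G2 and mitosis a median of -0.53.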

How the data were processed

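RNA of 1 CEL and 1 Control culture of MDA-MB-231 was sequenced on an Illumina NovaSeq instrument from NEBNext Ultra libraries, per the series' design text and the labels' protocols. The deposited FPKM were computed by the authors, and HTSeq version 0.5.4 and the GRCh38 build are named in the submitters' processing notes. The aligner, annotation release and strand setting are not stated in the sources used here. FPKM were used as deposited. Whole reads were recovered from FPKM and gene length for the 24783 genes above 0, 68.7% of them at the printed length (relative tolerance 5e-06) and 31.3% at a length shared by both libraries within 1 base of it (1e-06), and for all 50 members. These reads served for depth, counting intervals, the read counts given and the levels per longest coding transcript. Their recovery was tested on simulated data. The 354 rows without a gene name were left out; they held 0.265% of CEL reads and 0.298% of Control reads. A count of 0 allows 3 reads, or 0.174 FPKM in CEL and 0.202 FPKM in Control for a gene of 1 kb. Genes reaching 1 FPKM in either library were compared with a pseudocount of 1 FPKM. Trends were fitted with lowess (fraction 0.3) over protein-coding genes at or above 10 FPKM. Biotypes, transcript lengths and exon overlap came from GENCODE 29, in which 58437 gene identifiers matched. The members and lists were chosen with earlier results of these data known. All 50 members could be named, with full values for the highest and lowest fold and highest level in each role, and of each other list up to 4 genes with the largest absolute log2 fold; the remaining genes were named after their values were seen. Python 3.11.15, numpy 2.4.6, pandas 2.3.3, scipy 1.17.1, statsmodels 0.14.6 and matplotlib 3.10.9 were used.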

Additional observations from a re-analysis of the deposited data

How the results depend on the processing

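No paired analysis was possible because each group has 1 library, and for the same reason no library could be left out. The median log2 fold of the members stayed between 0.15 and 0.25 over 10 alternatives (pseudocount, filter, scaling, length and GC trends). In each of them 0 members were lower, and 37 to 42 of 50 lay above 0. Over all genes in these settings, the medians were -0.08 to 0.03, 3.56 to 14.6% were lower and 42.4 to 53.0% lay above 0. The number of higher members was 3 with the length trend removed, overall or in 5 expression bins, against 4.94% and 5.33% of all genes. It was 4 to 6 in the other 8 alternatives, against 4.39 to 11.5% of all genes. At a 2-fold call it was 0, against 2.7% of all genes. At 0.32 in log2 units 23 were higher and 1 lower, against 21.8% and 22.8% of all genes. Member folds moved beyond their counting interval for 17 of 50 members with upper quartile scaling, 14 with the length trend removed, 16 with it removed in bins and 6 with the GC trend removed; the 2 pseudocounts, TPM and centring moved 0, and the filters cannot move a fold. With library totals that leave out mitochondrial genes, the interval lay above 1 for 34 members and below 1 for 5. Other replication factors had 1 higher gene with a pseudocount of 5 FPKM, upper quartile scaling (also 1 lower) or either length removal. Turnover of licensing factors had 0 higher with a pseudocount of 5 FPKM, upper quartile scaling, GC removal or either length removal, and 2 lower with TPM or upper quartile scaling. The G1 list had 0 higher with a pseudocount of 5 FPKM (then 2 lower), upper quartile scaling or GC removal. Replication-coupled chromatin had 2 higher with length removal in bins. Beside these 4 lists, the share of all genes higher was 4.39% with a pseudocount of 5 FPKM and 6.96% with upper quartile scaling. It was 7.66% with GC removal, 4.94% with length removal and 5.33% with length removal in bins. The share lower was 3.56% with a pseudocount of 5 FPKM, 13.5% with TPM and 13% with upper quartile scaling. Upper quartile scaling gave 28 lower genes of G2 and mitosis and a median of -0.62, against 13% lower and a median of -0.08 for all genes. In the 150 bases before the start, 1.67% of member windows held the CHR-type motif and 25% the E2F type, against 39.7% and 1.72% of windows of G2 and mitosis. These shares were 0% and 14.3% for other replication factors, and 11.8% and 17.6% for the G1 list. With the longest coding transcript as length, chosen after seeing the data, CDT1 over GMNN was 0.376 in CEL and 0.366 in Control, RRM2 over RRM1 0.889 and 1.246, RFC5 over RFC1 1.34 and 0.764, and FEN1 over LIG1 4.23 and 2.02. Depth limits POLA2, with 70 reads in CEL and 73 in Control. The cause of these shifts was not tested.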

Other observations

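Proteins that remove licensing factors, package new DNA or repair forks were compared as well. Of 12 genes for the turnover of licensing factors, RBX1, the RING subunit of cullin ligases, was higher, at 37.0 FPKM in CEL and 23.2 FPKM in Control, and CCNF, the F-box protein cyclin F, was lower, at 10.02 FPKM in CEL and 20.8 FPKM in Control, a ratio of 0.482 (0.426 to 0.545). FZR1, an activator of the anaphase-promoting complex, stood at 38.9 FPKM in CEL and 57.2 FPKM in Control, and SKP1 at 96.2 FPKM in CEL and 67.0 FPKM in Control, both within 1.5-fold on the log2(FPKM + 1) scale. The median log2 fold of this list was 0.08, with 1 higher and 1 lower, against 8.97% and 10.2% of all genes.

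Of 14 genes of replication-coupled chromatin, ASF1A, a histone chaperone, was the higher one, at 26.2 FPKM in CEL and 12.8 FPKM in Control, a ratio of 2.05 (1.78 to 2.36), and 0 were lower, with a median log2 fold of 0.19. HAT1, which acetylates new histone H4, stood at 77.0 FPKM in CEL and 52.4 FPKM in Control, a log2 fold of 0.55. Of 43 genes of homologous recombination, the Fanconi pathway and checkpoints, 3 were higher and 0 lower, with a median of 0.19. Beside this list and that of chromatin, 8.97% of all genes were higher and 10.2% lower. The higher genes were the recombination genes XRCC3 (31.1 FPKM in CEL and 17.4 FPKM in Control) and XRCC2 (18.6 FPKM in CEL and 10.4 FPKM in Control) and the Fanconi gene FANCD2 (26.8 FPKM in CEL and 17.3 FPKM in Control). E2F1, an activator of many replication genes, stood at 68.8 FPKM in CEL and 48.8 FPKM in Control, a log2 fold of 0.49, a gene named here with its values known.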
